A study of Mus musculus with 6 samples.

Results

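The genes described here are the histone genes that mouse cells use to package newly copied DNA, measured by RNA sequencing in sorted bone marrow cells. Members were the genes whose mouse symbol, read from the Entrez Gene ID, begins as H1f, H2ac, H2bc, H3c, H4c or H4bc followed by a number. Of the 24532 gene IDs in the files, 68 matched, namely 10 linker histone H1 genes, 17 H2A, 17 H2B, 12 H3 and 12 H4 genes. Of these, 61 are replication-dependent genes. The other 7 (H1f0, H1f10, H1f6, H1f7, H1f8, H2ac1 and H2bc1) are linker histones or germ line forms that the symbol pattern also takes in. On the mouse build mm10, 54 members lie on chromosome 13 and 10 on chromosome 3. All the mice were of the C57BL/6J strain, and each of the 3 populations was sorted from bone marrow and sequenced in biological duplicate. BaP cells, labelled as basophil precursors, were gated as lineage-negative, CD34+, c-Kit- and MAR1+. MAR1HI and MAR1INT cells were both lineage-negative, CD34-, c-Kit- and CD200R3+, and differed in a high or an intermediate level of MAR1, an antibody that recognises the IgE receptor through its alpha subunit. No treatment, allele or age was given for any group, and the labels do not say whether a library came from 1 mouse or from pooled mice.

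As background, H2A, H2B, H3 and H4 form the core particle around which DNA is wrapped, and H1 binds the linker DNA between particles. The replication-dependent genes sit in clusters of many near-identical, intronless copies, and their transcription rises as a cell enters S phase through the coactivator NPAT. Their mRNAs are the known exception to polyadenylation in animal cells: they end just after a short stem-loop, which is bound by the stem-loop binding protein SLBP and cut with the help of the U7 small nuclear ribonucleoprotein. When DNA synthesis stops, these mRNAs are quickly degraded. Some of the genes can also give polyadenylated transcripts that read past the stem-loop, and replication-independent variants such as H3.3 come from separate, intron-containing, polyadenylated genes.

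Levels are in TPM, a share of the RNA measured in a library, scaled for transcript length. The RNA was enriched by capture probes, so the TPM of a gene can also depend on its probes. Comparisons between genes or families within a library carry that limit. The aligned depth was 4.75 to 5.28 gigabases per library. Basophil markers were present in every group, with all 12 listed genes detected and a summed TPM of 17971 and 22906 in BaP, 22924 and 19506 in MAR1HI against 16147 and 13380 in MAR1INT. Marker lists of other cells also held transcripts, and the highest were neutrophil markers, with a summed TPM of 6589 and 12500 in BaP, 5414 and 4233 in MAR1HI against 4375 and 3751 in MAR1INT. Eosinophil markers summed to 2166 and 1152 in BaP and to between 109 and 349 in the other 4 libraries, and their part in the histone results was not tested. MAR1HI replicate 2 stood apart for the histones, because 62 of the 65 members tested were lower in it than in MAR1HI replicate 1, with a median log2 difference of -0.60 against 0.41 over all genes tested. BaP replicate 2 stood apart for the H3c14 and H3c15 copies, described with the H3 genes. The counts of calls and the summed ratios that rest on MAR1HI are given with and without each MAR1HI library. In bulk samples such as these, fewer cells in S phase and less histone RNA per cell cannot be told apart.

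Histone transcripts made up a large part of the RNA measured in these libraries, and the share was smallest in MAR1INT. The 68 members together took 15.2% and 17.6% of TPM in the BaP libraries, 18.6% and 12.03% in the MAR1HI libraries, and 8.23% and 7.83% in the MAR1INT libraries. Both MAR1INT libraries were below all 4 of the others, while the BaP and MAR1HI libraries overlapped. On the ratio of group means, the summed level in BaP was 2.05 times that in MAR1INT, a log2 ratio of -1.03 for MAR1INT over BaP. The log2 ratio was -0.93 for MAR1INT over MAR1HI and -0.10 for MAR1HI over BaP. No test was made on these sums, since with 2 libraries a group the smallest exact permutation p is 0.33. Without MAR1HI replicate 1 the ratio of MAR1INT over MAR1HI was -0.58, and without MAR1HI replicate 2 it was -1.21. The sign of the ratio of MAR1HI over BaP turned with the MAR1HI library kept, at -0.45 without replicate 1 and 0.18 without replicate 2.

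The 5 families did not differ between the populations by the same amount. H3 transcripts had the widest gap. Their summed TPM was 33439 and 32519 in BaP, 39595 and 23770 in MAR1HI against 11699 and 11758 in MAR1INT, a log2 ratio of -1.49 for MAR1INT over BaP. H2A genes summed to 32202 and 36741 in BaP, 39519 and 27432 in MAR1HI against 15961 and 16071 in MAR1INT (-1.11). H2B genes summed to 37457 and 47726 in BaP, 44797 and 30101 in MAR1HI against 22865 and 20286 in MAR1INT (-0.98). In all of these families both MAR1INT libraries were below every BaP and MAR1HI library. H4, the most abundant family, summed to 41780 and 52684 in BaP, 52553 and 32563 in MAR1HI against 26290 and 24966 in MAR1INT (-0.88). The H1 genes had the smallest gap, with 7258 and 6690 in BaP, 9347 and 6452 in MAR1HI against 5491 and 5174 in MAR1INT (-0.39). For MAR1INT over MAR1HI, the family ratios ran from -1.43 (H3) to -0.57 (H1), from -1.02 to -0.27 without MAR1HI replicate 1 and from -1.76 to -0.81 without MAR1HI replicate 2, with H3 lowest and H1 highest each time. The sign of each family's MAR1INT over BaP ratio was the same under the 4 other scalings tried. As a share of all histone TPM, H3 went from 22% and 18.4% in BaP to 14.2% and 15% in MAR1INT, while H4 took 27.5% and 29.9% in BaP and 31.9% in each MAR1INT library. H1 transcripts were equal to 5.01% and 3.94% of the summed core histone TPM in BaP and to 7.15% and 7.08% in MAR1INT.

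**Figure D1:**
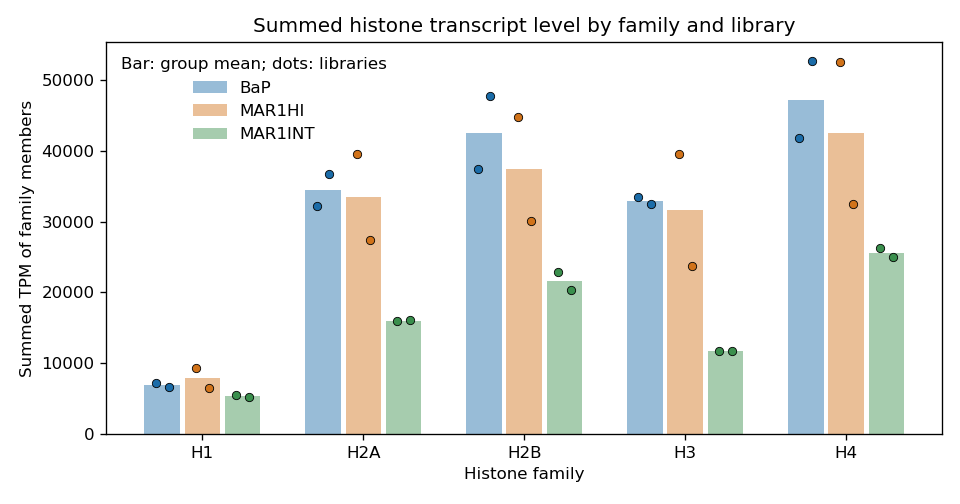
Summed TPM (vertical axis) of the members of each histone family (horizontal axis) in the 3 populations, with a bar for the group mean and a dot for each library. Both MAR1INT dots lie below all BaP and MAR1HI dots in every family, and the gap is widest for H3, at 11699 and 11758 against 23770 or more.

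Of the 68 members, 65 reached 1 TPM in at least 2 libraries and were tested, and H1f7, H1f8 and H2ac1 did not. The test was limma on log2(TPM + 1) over 11337 genes with Benjamini-Hochberg adjustment, called at an adjusted p under 0.05, so changes below are on the log2(TPM + 1) scale. Between MAR1INT and BaP, 43 of the 65 members fell, against 20.4% of all genes tested called lower, and 1 (H3c14) was called higher, against 11.1% of all genes. The median change of the members was -1.19, where the median of all genes was -0.16. Between MAR1INT and MAR1HI, 40 members were called lower and 2 higher (H3c14 and H4bc24), against 14.5% and 2.29% of all genes. H3c14 passed the filter on low values only through MAR1INT, where it is high, so its higher calls are no result. The members' median was -1.03 beside -0.36 for all genes. The count of 40 was 19 without MAR1HI replicate 1 and 27 without MAR1HI replicate 2. With median-of-ratios scaling it was 6 lower and 2 higher, against 10.8% and 7.11% of all genes. Between MAR1HI and BaP, limma called 1 member lower (H4bc24) and 0 higher, against 0.662% and 1.83% of all genes, and 3 members had an unadjusted p under 0.05. The call on H4bc24 was lost without BaP replicate 1 (adjusted p = 0.135 with limma), where H3c14 was called lower instead, and without BaP replicate 2 (adjusted p = 0.144). The contrasts share libraries, so their counts are not independent of each other. The share of all genes called was not counted with a library left out. Counts of members from those fits, here and below, therefore have no share beside them. Both MAR1INT libraries lay below both BaP libraries in 53 of the 65 members tested, which was so for 39.1% of all genes.

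**Figure D2:**
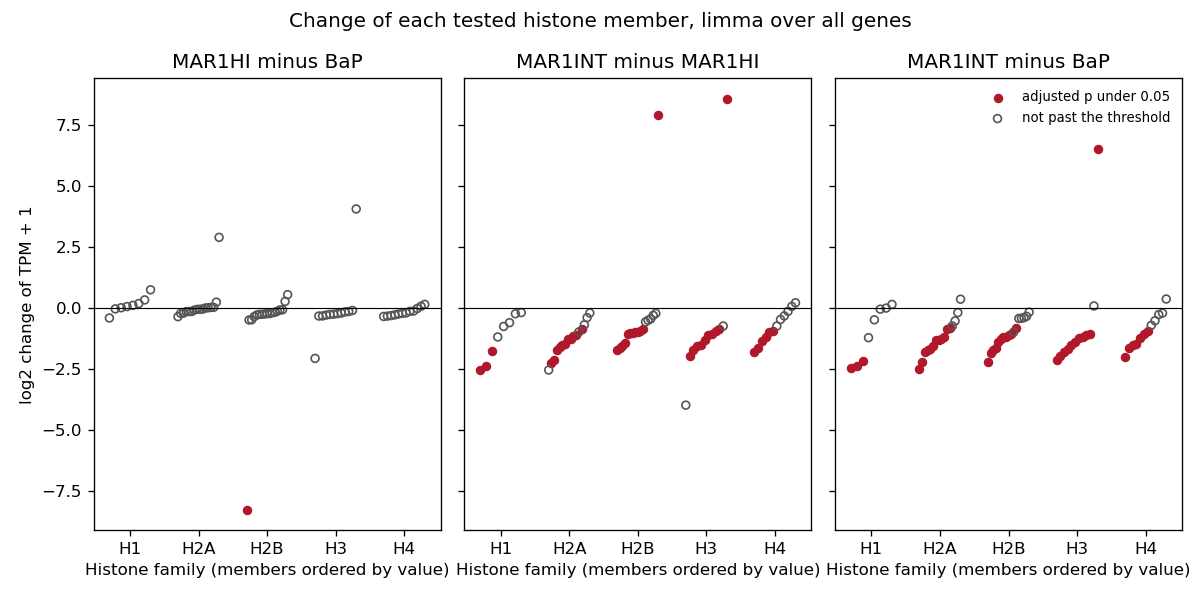
Change in log2(TPM + 1) (vertical axis) of each of the 65 tested members, grouped by family and ordered by value, in the 3 contrasts. Filled points passed an adjusted p of 0.05, and most filled points in the MAR1INT contrasts lie below 0. The far points are IDs from sets of shared copies (H4bc24 at -8.26, H3c14 at 8.59 and 6.52). H3c14 passed the filter on low values only through MAR1INT, where it is high.

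The linker histone genes split into those that fell in MAR1INT and those that did not pass the test. H1f5 (chr13:21779832-21780625) had 1022 and 977 TPM in BaP, 1205 and 848 in MAR1HI against 244 and 154 in MAR1INT. The MAR1INT libraries were far below the other 4, a change of -2.36 ± 0.26 (SE) from BaP with limma (adjusted p = 0.000287) and of -2.38 from MAR1HI (adjusted p = 0.000504). H1f1 (chr13:23763668-23764412) had 672 and 541 TPM in BaP, 593 and 349 in MAR1HI against 138 and 131 in MAR1INT, a change of -2.16 ± 0.26 from BaP with limma (adjusted p = 0.000453). H1f1 lies outside the naming rule and was named after its values were seen. H1f2 (chr13:23738807-23739531) was at 1858 and 1633 TPM in BaP, 2644 and 1832 in MAR1HI against 1910 and 1966 in MAR1INT, within the MAR1HI range and above both BaP libraries, and the change did not pass (0.15 ± 0.21 between MAR1INT and BaP, adjusted p = 0.607 with limma). H1f4 gave 1679 and 1713 TPM in BaP and 1678 and 1618 in MAR1INT (-0.04 ± 0.19, adjusted p = 0.891 with limma). H1f3 gave 1809 and 1714 TPM in BaP and 1365 and 1168 in MAR1INT (-0.48 ± 0.22, adjusted p = 0.129 with limma). Within the H1 pool, H1f1 and H1f5 held 23.3% and 22.7% of H1 TPM in BaP, 19.2% and 18.6% in MAR1HI against 6.95% and 5.49% in MAR1INT. H1f2, H1f3 and H1f4 held 90.2% and 91.8% in MAR1INT against 73.6% and 75.6% in BaP.

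H1f0, the replication-independent linker histone known from non-dividing cells, had 207 and 98.0 TPM in BaP, 274 and 212 in MAR1HI against 149 and 137 in MAR1INT. Its groups overlapped between MAR1INT and BaP (0.00 ± 0.33, adjusted p = 0.996 with limma). H1f10, another replication-independent linker histone, was low, at 7.32 and 5.97 TPM in BaP, 8.39 and 5.75 in MAR1HI against 0.153 and 0.672 in MAR1INT. It passed the filter on low values only through BaP and MAR1HI, where it is high, so no test of it is given. It is 1 of the 43 and of the 40 members called lower, which are 42 and 39 without the genes that are not replication-dependent. The germ line genes H1f6 (0 to 7.27 TPM) and H2bc1 (25.5 to 87.1 TPM) were low beside their families and did not pass in any contrast.

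**Figure D3:**
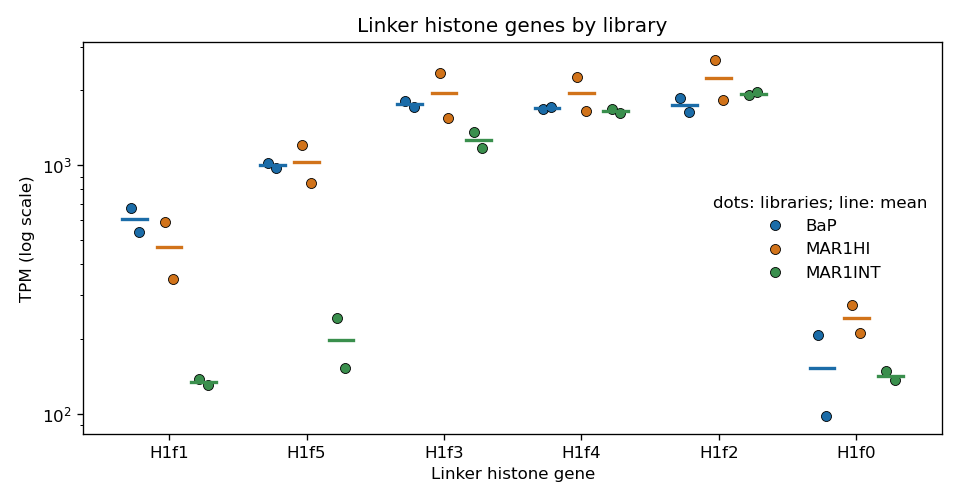
TPM on a log axis of 6 linker histone genes, with a dot for each library and a line for the group mean. H1f1 and H1f5 have both MAR1INT dots (131 to 244 TPM) below all others, whereas the H1f0 dots overlap between MAR1INT and BaP, both H1f2 dots of MAR1INT (1910 and 1966 TPM) lie just above those of BaP, and those of H1f4 lie just below.

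The promoters of H1f5 and H1f2 are shown because among the abundant H1 genes these had the lowest and the highest change between MAR1INT and BaP, and that of H2bc3 is shown as a core histone gene that fell and holds all 3 motifs searched. They are RefSeq sequences on GRCm38.p6, from 250 bases before to 50 bases after the annotated start, at chr13:21780576-21780875 (minus strand), chr13:23738557-23738856 (plus strand) and chr13:23746484-23746783 (plus strand). Capitals mark matches, on either strand and with overlaps allowed, to the octamer ATTTGCAT, the CCAAT box CCAAT and the TATA box TATAAA.
H1f5: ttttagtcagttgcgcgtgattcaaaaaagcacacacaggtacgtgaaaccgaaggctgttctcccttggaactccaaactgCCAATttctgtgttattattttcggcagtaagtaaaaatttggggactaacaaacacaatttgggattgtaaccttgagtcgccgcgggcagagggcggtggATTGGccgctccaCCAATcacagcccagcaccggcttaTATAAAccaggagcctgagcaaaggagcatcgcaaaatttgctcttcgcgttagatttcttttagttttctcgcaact
H1f2: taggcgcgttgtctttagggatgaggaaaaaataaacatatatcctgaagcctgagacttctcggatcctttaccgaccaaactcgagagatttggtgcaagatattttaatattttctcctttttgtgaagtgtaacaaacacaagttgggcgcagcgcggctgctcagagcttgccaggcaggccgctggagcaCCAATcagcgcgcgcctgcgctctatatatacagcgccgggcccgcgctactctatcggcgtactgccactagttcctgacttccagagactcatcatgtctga
H2bc3: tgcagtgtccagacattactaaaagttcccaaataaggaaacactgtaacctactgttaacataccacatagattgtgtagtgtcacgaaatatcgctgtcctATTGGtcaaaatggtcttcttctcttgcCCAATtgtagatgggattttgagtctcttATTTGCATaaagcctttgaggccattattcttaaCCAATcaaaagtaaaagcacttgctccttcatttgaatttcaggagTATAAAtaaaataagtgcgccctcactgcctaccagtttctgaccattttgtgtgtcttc
H1f5 has 3 CCAAT matches and a TATAAA match in this window, and H1f2 has a CCAAT match only. Only these exact letters were searched, so looser forms of the TATA box, in H1f2 or elsewhere, were not counted. A RefSeq promoter was matched for 63 of the 68 members. The octamer, known as the site of Oct-1 in H2B promoters, was present in 7 of 15 H2B and 6 of 17 H2A promoters, in no H1, H3 or H4 promoter, and in 1.74% of all 32851 promoters of the same length. CCAAT was present in every H2A, H2B and H3 promoter matched but in 3 of 11 H4 promoters, beside 37.4% of all promoters. TATAAA was found in 54.0% of the members and 13.6% of all promoters. A match is a description of letters, not of a bound site.

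Most H2A genes were lower in MAR1INT: 12 of the 16 tested fell against BaP and 11 against MAR1HI, where 20.4% and 14.5% of all genes were called lower. The 11 were 7 without MAR1HI replicate 1 and 10 without MAR1HI replicate 2. H2ac4 (chr13:23751088-23751592) showed the common pattern, at 3148 and 3498 TPM in BaP, 4000 and 2882 in MAR1HI against 1036 and 1003 in MAR1INT, with no overlap between MAR1INT and the rest (-1.70 ± 0.20 from BaP, adjusted p = 0.000376 with limma). H2ac15 was at 3091 and 3824 TPM in BaP and 1388 and 1366 in MAR1INT (-1.32 ± 0.21, adjusted p = 0.0017 with limma). The largest fall among members called between MAR1INT and BaP was that of H2ac21 (chr3:96219885-96220354), a low-level gene at 263 and 217 TPM in BaP, 239 and 146 in MAR1HI against 46.8 and 37.7 in MAR1INT (-2.48 ± 0.28, adjusted p = 0.000316 with limma). H2ac10 (chr13:23533875-23534378) had 1614 and 1772 TPM in BaP, 1999 and 1489 in MAR1HI against 323 and 411 in MAR1INT (-2.21 ± 0.21, adjusted p = 0.000157 with limma). H2ac6, named after its values were seen, overlapped between the groups, at 1226 and 1592 TPM in BaP, 1610 and 1239 in MAR1HI against 1197 and 1265 in MAR1INT (-0.18 ± 0.21, adjusted p = 0.532 with limma). The H2A genes encode 7 distinct open reading frames, and the frame shared by 9 members had 17853 and 20333 TPM in BaP, 21648 and 14991 in MAR1HI against 8588 and 9146 in MAR1INT.

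Among the H2B genes, 11 of 17 fell in MAR1INT against BaP and 11 against MAR1HI, where 20.4% and 14.5% of all genes were called lower. With a library left out no share of all genes was counted, so the counts that follow are no result about H2B. The count from BaP was 5 without BaP replicate 2, and that from MAR1HI was 3 without MAR1HI replicate 1 and 4 without MAR1HI replicate 2. H2bc3 (chr13:23746734-23747223) had 4243 and 5183 TPM in BaP, 5471 and 3626 in MAR1HI against 1540 and 1334 in MAR1INT (-1.71 ± 0.23 from BaP, adjusted p = 0.000695 with limma). H2bc15, the H2B gene with the highest mean level, had 5127 and 5931 TPM in BaP, 6411 and 4317 in MAR1HI against 2851 and 2391 in MAR1INT (-1.08 ± 0.22, adjusted p = 0.00605 with limma). Both genes had MAR1INT libraries below all the others. H2bc8 did not pass, at 3597 and 4560 TPM in BaP, 4540 and 3033 in MAR1HI against 3292 and 2769 in MAR1INT (-0.42 ± 0.23, adjusted p = 0.194 with limma). H4bc24 carries an H4 symbol, but its open reading frame of 126 residues is identical at all 126 to that of H2bc23, and it was counted with H2B. Counting it with H4 instead gave a MAR1INT over BaP log2 ratio of -1.05 for H2B and -0.84 for H4.

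Several IDs are copies listed at the same positions as each other, and 9 IDs were each listed at 2 places in the genome. The TPM at a position could thus be given under either ID. At the plus-strand position of H2ac18, for example, H2ac18 had 1843 and 3671 TPM in BaP, and H2ac19 had 1448 and 0.254. Why the TPM went to 1 ID or the other was not tested. The 5 such sets were H2ac18 with H2ac19, H2ac23 with H2ac24, H2bc23 with H4bc24, H3c14 with H3c15, and H4c17 with H4c18. H4bc24 (chr13:21833743-21837530) had 2741 and 3603 TPM in BaP, 70.5 and 0.461 in MAR1HI against 2518 and 2462 in MAR1INT. H2bc23 (chr13:21806412-21810199) had 3452 and 4547 TPM in BaP, 7248 and 4674 in MAR1HI against 3051 and 2896 in MAR1INT, high in the same libraries where H4bc24 was near 0. In BaP and MAR1INT most TPM of each ID lay at the position of the other. The H4bc24 ID had 2714 and 3569 TPM in BaP and 2418 and 2359 in MAR1INT at the H2bc23 position. At the H4bc24 position the H2bc23 ID had 3424 and 4520 TPM in BaP and 2958 and 2823 in MAR1INT. In the MAR1HI libraries the H2bc23 ID took the TPM of both positions. It had 4014 and 2635 at the H4bc24 position and 3234 and 2039 at its own. Summed, the H2bc23 and H4bc24 level was 6193 and 8150 TPM in BaP, 7318 and 4674 in MAR1HI against 5569 and 5358 in MAR1INT. The sum differed by -0.28 ± 0.24 between MAR1HI and BaP (adjusted p = 0.581 with limma), where H4bc24 alone had -8.26 ± 1.31 (adjusted p = 0.0146 with limma). The call on H4bc24 between MAR1INT and MAR1HI (7.93, adjusted p = 0.00399 with limma) likewise was not one of the sum (-0.10, adjusted p = 0.821).

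The copies H2ac18 and H2ac19 have the same 30 bases around the stem-loop, at chr3:96246025-96246054 (plus strand) and chr3:96239777-96239806 (minus strand) on mm10, as GENCODE transcripts give them. They are shown with the stem-loops of H1f2 (chr13:23739505-23739534 (plus strand)), H3c3 (chr13:23745040-23745069 (minus strand)), H4c6 (chr13:23551284-23551313 (minus strand)) and H4c11 (chr13:21735430-21735459 (plus strand)), since this element is what sets the class apart. Capitals mark the 16 bases of the stem-loop.
H2ac18: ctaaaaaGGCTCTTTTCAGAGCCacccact
H2ac19: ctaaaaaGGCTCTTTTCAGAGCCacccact
H1f2: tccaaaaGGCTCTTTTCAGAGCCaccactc
H3c3: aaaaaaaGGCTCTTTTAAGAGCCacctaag
H4c6: tctcaaaGGCCCTTTTCAGGGCCacccact
H4c11: ccctaaaGGTCCTTTTCAGGACCaccacat
A stem-loop was found in annotated transcripts of 43 of the 68 members. Only annotated transcripts were searched, so a missing match, as in H1f1 and H1f5, does not show that a gene lacks the element. The germ line gene H1f6, not counted as replication-dependent, had a match. The form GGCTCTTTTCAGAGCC was the most frequent outside H4, in 9 H2A, 7 H2B, 5 H3 and 3 H1 genes, while 6 H4 genes had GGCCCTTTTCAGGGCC. H2ac18 alone gave 3411 and 7421 TPM in BaP and 4540 and 2024 in MAR1INT, and H2ac19 gave 3185 and 0.263 TPM in BaP and 2.42 and 1957 in MAR1INT, so each ID varied widely between replicates. Their sum was steadier, at 6596 and 7421 TPM in BaP, 8437 and 5656 in MAR1HI against 4543 and 3981 in MAR1INT. Neither ID was called between MAR1INT and BaP, whereas the sum fell (-0.72 ± 0.22, adjusted p = 0.0309 with limma). The summed H2ac23 and H2ac24 level also fell, from 5096 and 5951 TPM in BaP to 2980 and 3300 in MAR1INT (-0.81 ± 0.22, adjusted p = 0.0187 with limma). With the 5 sets merged, a choice made after seeing the data, 44 of 60 members and sets were called lower and 0 higher by limma between MAR1INT and BaP. No share of all genes is given for that fit, so these counts cannot be set against one.

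**Figure D4:**
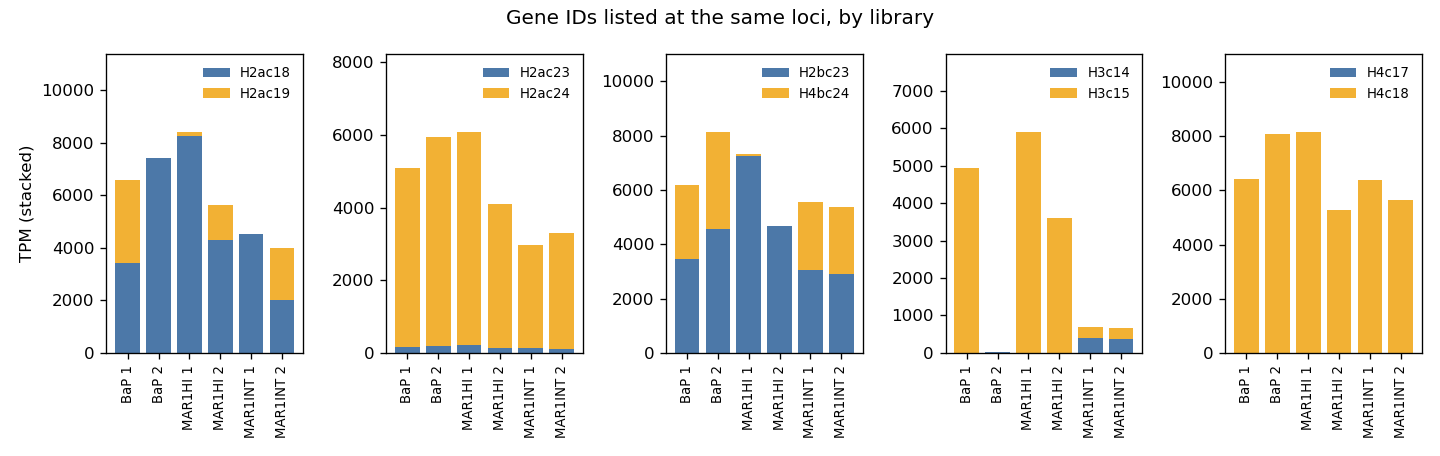
TPM of the 5 sets of shared copies by library, with the 2 IDs of each set stacked. In the H2bc23 and H4bc24 panel the H4bc24 part is missing in MAR1HI while the height of the bar stays between 4674 and 8150 TPM, and in the H3c14 and H3c15 panel BaP replicate 2 is near 0.

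Of the 12 H3 genes, 10 fell in MAR1INT against BaP and 9 against MAR1HI, where 20.4% and 14.5% of all genes were called lower. The 10 were 7 without BaP replicate 2, and the 9 were 4 without MAR1HI replicate 1 and 7 without MAR1HI replicate 2. H3c3 (chr13:23745042-23745521) had 5035 and 4850 TPM in BaP, 5865 and 3356 in MAR1HI against 1004 and 1256 in MAR1INT (-2.14 ± 0.26 from BaP, adjusted p = 0.000439 with limma). H3c2 had 4080 and 4357 TPM in BaP and 1260 and 1165 in MAR1INT (-1.80 ± 0.24, adjusted p = 0.000759 with limma). H3c6 had 4237 and 5336 TPM in BaP, 4905 and 2940 in MAR1HI against 2184 and 2384 in MAR1INT (-1.06 ± 0.25, adjusted p = 0.0112 with limma). In each of these 3 genes the MAR1INT libraries were below all the others. The 12 members encode 2 proteins that differ at 1 of 136 residues. The product of 8 members had 25223 and 22877 TPM in BaP and 8170 and 8384 in MAR1INT, and that of 4 members had 8216 and 9642 TPM in BaP and 3529 and 3374 in MAR1INT, so both were lower in MAR1INT. Without H3c14 and H3c15, the first product had 20297 and 22847 TPM in BaP and 7467 and 7724 in MAR1INT.

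The exception was the pair H3c14 (chr3:96246685-96247348) and H3c15 (chr3:96238479-96239127). H3c15 had 4926 and 14.3 TPM in BaP, 5907 and 3592 in MAR1HI against 301 and 281 in MAR1INT. H3c14 had 0.0751 and 15.9 TPM in BaP, 0.00665 and 0.0327 in MAR1HI against 402 and 379 in MAR1INT, so the TPM of the set was divided between both IDs in MAR1INT and lay almost wholly with H3c15 in MAR1HI. In MAR1INT the H3c14 ID had 384 and 369 TPM at the H3c15 position and 18.1 and 10.4 at its own. The H3c15 ID had 27.2 and 15.7 TPM at the H3c14 position in MAR1INT, against 3154 and 1926 in MAR1HI. The high MAR1INT values of the H3c14 ID are therefore not those of its own position. H3c14 passed the filter on low values only through MAR1INT, where it is high, so no test of its rise is given. The summed level of the set was 4926 and 30.1 TPM in BaP, 5907 and 3592 in MAR1HI against 703 and 660 in MAR1INT. In BaP replicate 2 the H3c15 ID had 6.74 and 7.52 TPM at its 2 positions, against 2635 and 2291 in BaP replicate 1, while H3c14 was higher there than in BaP replicate 1. With both BaP libraries the sum did not pass (0.80 ± 1.69, adjusted p = 0.752 with limma). Without BaP replicate 2, H3c15 alone had a change of -4.08 between MAR1INT and BaP (adjusted p = 0.00116 with limma). Without BaP replicate 1 it had 4.26, the opposite direction (adjusted p = 0.00119 with limma), and with both libraries 0.09, so BaP gives H3c15 no direction. Leaving out both IDs, the H3 sum was 28513 and 32489 TPM in BaP, 33688 and 20178 in MAR1HI against 10996 and 11098 in MAR1INT, a log2 ratio of -1.47 for MAR1INT over BaP.

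All 12 H4 members encode the same protein. In MAR1INT 7 of them fell against BaP and 6 against MAR1HI, where 20.4% and 14.5% of all genes were called lower. The 7 were 4 without BaP replicate 2, and the 6 were 3 without MAR1HI replicate 1 and 4 without MAR1HI replicate 2. H4c6 (chr13:23551286-23551668) had 5023 and 6303 TPM in BaP, 7097 and 4366 in MAR1HI against 1960 and 1668 in MAR1INT (-1.64 ± 0.25 from BaP, adjusted p = 0.00128 with limma). H4c11, named after its values were seen, had 2008 and 2352 TPM in BaP and 586 and 491 in MAR1INT (-2.02 ± 0.24, adjusted p = 0.000416 with limma). The H4 gene with the highest mean level, H4c4 (chr13:23581568-23581969), had 6952 and 10067 TPM in BaP, 8856 and 5664 in MAR1HI against 4965 and 5303 in MAR1INT, and its change did not pass (-0.71 ± 0.25, adjusted p = 0.0602 with limma). H4c3 was at 5976 and 6770 TPM in BaP, 7109 and 4335 in MAR1HI against 4315 and 4590 in MAR1INT, and overlapped with MAR1HI (-0.51 ± 0.24 from BaP, adjusted p = 0.125 with limma). H4c18 with its copy H4c17 overlapped between MAR1HI and MAR1INT but not between BaP and MAR1INT, at 6410 and 8099 TPM in BaP, 8175 and 5285 in MAR1HI against 6381 and 5647 in MAR1INT (-0.26 ± 0.23, adjusted p = 0.42 with limma).

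Members were also described by the length of their annotated transcripts. Of the 61 replication-dependent members, 16 have an annotated transcript of 1000 bases or more. Among them, 10 were not called between MAR1INT and BaP. These were H1f2, H1f3, H1f4, H2ac6, H2bc6, H2bc21, H4c4 and the shared copies H2bc23, H4bc24 and H3c15. The shared copy H3c14 was called higher, which is no result for the reason given above. Those called lower were H2bc9 (-1.82), H3c4 (-1.66), H3c7 (-1.38), H4c14 (-0.92) and H2bc4 (-0.81). Between MAR1INT and BaP, 5 of these 16 were called lower with a median change of -0.40, beside 37 of the 45 with only shorter transcripts and a median of -1.28, where 20.4% of all genes were called lower. Between MAR1INT and MAR1HI the counts were 5 of 16 and 34 of 45, with medians of -0.51 and -1.14, where 14.5% of all genes were called lower. Against MAR1HI the counts were 0 and 19 without MAR1HI replicate 1 and 3 and 24 without MAR1HI replicate 2. Against BaP they were 3 and 37 without either MAR1HI library, and 4 and 24 without BaP replicate 2. The 16 summed to 36500 and 40539 TPM in BaP, 45839 and 29877 in MAR1HI against 24080 and 23429 in MAR1INT. The 45 summed to 115369 and 135622 TPM in BaP, 139636 and 90171 in MAR1HI against 58028 and 54663 in MAR1INT. The length of 1000 bases was chosen after the values were seen, 4 of the 16 belong to sets of shared copies, and the difference between the 2 classes was not tested.

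Genes that act on histone transcripts were described from lists of their roles. Of 24 tested genes for histone transcription and 3′ end processing, 3 fell in MAR1INT against BaP and 3 against MAR1HI, against 20.4% and 14.5% of all genes called lower, with medians of -0.13 and -0.42. These counts were below the share of all genes. Slbp, whose product binds the stem-loop, had 68.5 and 74.6 TPM in BaP, 84.6 and 122 in MAR1HI against 33.7 and 24 in MAR1INT. It fell by 1.30 ± 0.29 from BaP (adjusted p = 0.00856 with limma) and by 1.80 ± 0.29 from MAR1HI (adjusted p = 0.00336). Casp8ap2, which encodes the histone locus body protein FLASH, had 51.4 and 47.2 TPM in BaP, 49.6 and 57.5 in MAR1HI against 12.9 and 13.8 in MAR1INT (-1.81 ± 0.28 from BaP, adjusted p = 0.0014 with limma). Cstf2, a subunit of the cleavage machinery, was the other gene called, at 32.7 and 30.8 TPM in BaP and 10.1 and 9.69 in MAR1INT (-1.59 ± 0.32, adjusted p = 0.00583 with limma). Npat, the coactivator of these genes, gave 31.7 and 25.5 TPM in BaP and 13.4 and 27.2 in MAR1INT, which overlapped (-0.54 ± 0.38, adjusted p = 0.304 with limma). The U7 RNA gene Rnu7 was listed at 0 in all libraries.

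Of 18 genes for histone mRNA decay, 4 fell and 2 rose in MAR1INT against BaP, and 2 fell against MAR1HI. These counts were near the 20.4% lower and 11.1% higher of all genes from BaP and under the 14.5% lower of all genes from MAR1HI, and are no result about the list. The 3 with the largest changes from BaP were Lsm2 (-3.40 ± 0.99, adjusted p = 0.0283), Lsm3 (-1.70 ± 0.38, adjusted p = 0.00917) and Lsm6 (-1.33 ± 0.34, adjusted p = 0.0163, all with limma), subunits of the ring that binds the 3′ ends of decaying mRNAs. Eri1, the exonuclease that trims histone mRNA at the stem-loop, had 13.1 and 14.4 TPM in BaP, 16.1 and 25.2 in MAR1HI against 10.5 and 7.19 in MAR1INT (-0.60 ± 0.39 from BaP, adjusted p = 0.276 with limma). Of 25 histone chaperone genes, 15 fell and 1 rose in MAR1INT against BaP, beside 20.4% and 11.1% of all genes, and 13 fell against MAR1HI, beside 14.5%. Chaf1b and Chaf1a, subunits of the CAF-1 complex that deposits H3 and H4 on new DNA, changed by -4.04 ± 0.64 and -3.52 ± 0.34 from BaP (adjusted p = 0.00167 and 0.000157 with limma). Chaf1a, for example, had 52.5 and 40.2 TPM in BaP, 32.1 and 35.9 in MAR1HI against 3.08 and 3.10 in MAR1INT, with MAR1INT far below the rest. Asf1b, a chaperone of H3 and H4, had 49.0 and 56.7 TPM in BaP, 60.3 and 67.4 in MAR1HI against 2.78 and 6.44 in MAR1INT (-3.61 ± 0.37 from MAR1HI, adjusted p = 0.00043 with limma). Mcm2, a helicase subunit that also carries H3 and H4, changed by -3.53 ± 0.34 from BaP (adjusted p = 0.000167 with limma).

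Of 10 replication-independent histone genes tested, a list that includes H1f0 and H1f10, 4 fell and 1 rose in MAR1INT against BaP, beside 20.4% and 11.1% of all genes, and 5 fell and 1 rose against MAR1HI, beside 14.5% and 2.29%. The lower counts include H1f10, which passed the filter only through BaP and MAR1HI. H3f3b, which encodes H3.3, had 175 TPM in each BaP library, 282 and 273 in MAR1HI against 455 and 416 in MAR1INT, so the 3 groups did not overlap. It rose by 1.31 ± 0.19 from BaP (adjusted p = 0.000952 with limma). H3f3a, which encodes the same protein, had 542 and 541 TPM in BaP, 556 and 610 in MAR1HI against 678 and 601 in MAR1INT (0.24 ± 0.18 from BaP, adjusted p = 0.343 with limma). The H3 members were at 46.6 and 45.4 times the summed H3f3a and H3f3b level in BaP, 47.2 and 26.9 times in MAR1HI, and 10.3 and 11.6 times in MAR1INT. H2ax, whose mRNA can be made in both forms, fell from 790 and 823 TPM in BaP to 177 and 135 in MAR1INT (-2.37 ± 0.24, adjusted p = 0.000208 with limma). H2az1, which encodes H2A.Z, fell from 787 and 808 TPM to 208 and 224 (-1.88 ± 0.18, adjusted p = 0.000174 with limma). The H2A members were at 39.5 and 43.3 times the summed H2az1 and H2az2 level in BaP and 70.4 and 65.6 times in MAR1INT.

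Cell cycle genes were lower in MAR1INT by more than the histone genes. Of 40 S phase genes, 37 fell against BaP and 34 against MAR1HI, beside 20.4% and 14.5% of all genes, with median changes of -3.07 and -2.74. All 26 tested genes of G2 and mitosis fell in both contrasts, with medians of -2.74 and -3.12. The summed TPM of the S phase genes was 2896 and 2803 in BaP, 2530 and 3008 in MAR1HI against 900 and 724 in MAR1INT. That of the G2 and mitosis genes was 2674 and 2806 in BaP, 3103 and 4003 in MAR1HI against 450 and 350 in MAR1INT, so on both lists MAR1INT was below the other groups. The histone members were at 52.5 and 62.9 times the S phase sum in BaP, 73.4 and 40.0 times in MAR1HI, and 91.5 and 108 times in MAR1INT, highest in the MAR1INT libraries. In MAR1HI replicate 2, where the histones were lower than in replicate 1, the S phase genes were not, at 3008 against 2530 TPM.

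**Figure D5:**
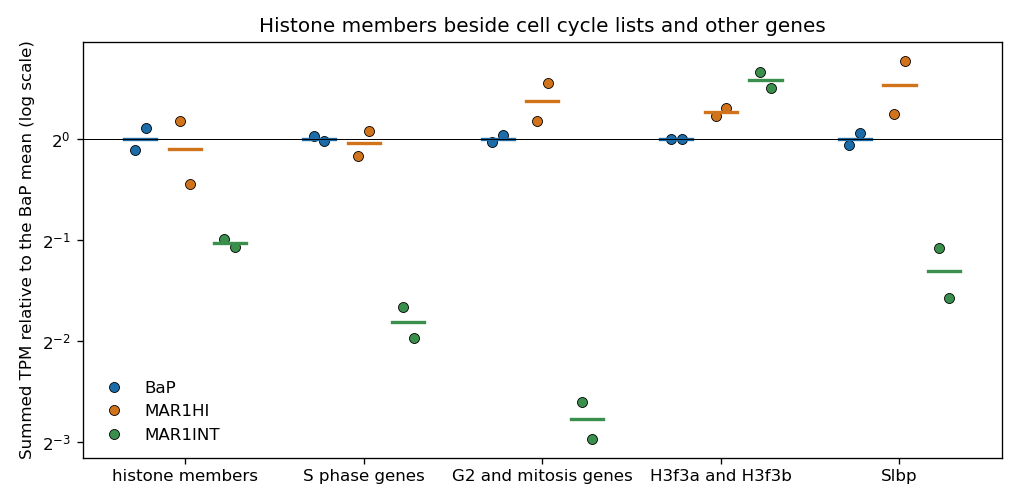
Summed TPM relative to the BaP mean (vertical log axis with base 2) of all histone members, the S phase list, the G2 and mitosis list, H3f3a with H3f3b, and Slbp, with a dot for each library and a line for the group mean. In MAR1INT the histone members lie about 1 log2 unit below BaP, the S phase and mitosis lists lie lower, and H3f3a with H3f3b lies above BaP.

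The histone changes were set beside those of other short genes and under other scalings. Genes that are not members but have a longest transcript of 800 bases or less, 279 in all and chosen after the data were seen, had a median change of -0.55 between MAR1INT and BaP and -0.65 between MAR1INT and MAR1HI, beside -0.15 and -0.35 for longer genes. The histone medians of -1.19 and -1.03 were below both classes. The median of all genes moved with the scaling, from -0.36 in TPM to 0.05 after quantile normalization between MAR1INT and MAR1HI, and the median of the members there was -1.13. After quantile normalization 43 members were called lower and 2 higher in each MAR1INT contrast, against 8.44% and 6.01% of all genes from MAR1HI and 17.1% and 20% from BaP. Median-of-ratios scaling gave 6 of 65 lower from MAR1HI, under the 10.8% of all genes, with medians of -0.74 and -0.11. It gave 29 lower from BaP, against 22.5%. FPKM gave 25 lower from MAR1HI and 42 from BaP, against 16.4% and 27.8%. TPM over genes that are not members gave 40 and 44, against 18.1% and 23.6%.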

How the data were processed

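RNA from 6 libraries of 3 sorted populations was measured, and groups and replicate numbers came from the labels. Per the labels, total RNA was taken with TRIzol LS and libraries were made with a SureSelectXT RNA direct kit, which enriches RNA by capture probes, so transcripts without a poly(A) tail can be measured. Per the submitters' processing notes, Trimmomatic, HISAT2 and StringTie were used with the mouse build mm10, and their versions and the annotation are not given in the sources used here. The authors deposited a TPM value, an FPKM value and a coverage signal per gene. The aligned depth was derived from the most frequent ratio of FPKM to coverage in a library. Read counts are not in these tables, so no count test was run. The StringTie rows of 1 Entrez ID were summed.

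TPM was tested as log2(TPM + 1) for genes at 1 TPM or more in at least 2 libraries with limma 3.58.1 in R 4.3.3, with 1 term per population, a trended prior and adjustment over 11337 genes. The test was checked on simulated data. Labels call the libraries biological duplicates. Each p-value rests on 1 spread per gene, shared by all populations and moderated toward the prior. It is not the spread of only the groups compared. The median SD of the members was 0.10 in MAR1INT, 0.22 in BaP and 0.42 in MAR1HI. The shared spread can therefore understate that of MAR1HI. Same-numbered libraries did not deviate together (r = 0.15, -0.09 and -0.06), so no block was used. The members and all gene lists were chosen with earlier results of these data known. Named were the 4 highest members per family, the 4 largest called changes per contrast and direction, the replication-independent and germ line members, and set genes of the lists. Alternatives were the pseudocount, the filter, the scaling (FPKM, quantile, median-of-ratios, TPM over genes that are not members), the groups fitted, the replicate block and each library left out. Members were grouped by the open reading frames of GENCODE M21 transcripts. Symbols were found for 24462 of the 24532 IDs, and 3 pseudogenes that match the pattern are not listed in the files. Python 3.11.15, pandas 2.3.3 and matplotlib 3.10.9 were used.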

Additional observations from a re-analysis of the deposited data

How the results depend on the processing

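The summed histone level was lower in MAR1INT than in BaP under every alternative run, with 27 of the 43 lower calls kept in each of 15 settings and 29 to 47 members called lower in them. The contrast of MAR1INT with MAR1HI was less firm: 5 of its 40 lower calls were kept in each setting. Its lower count was 10 with no filter on low values, 25 with FPKM, 6 with median-of-ratios scaling, and 19 to 44 with a library left out. Its higher count of 2 was 1 with no filter, 0 with copy sets merged, and 1 to 3 with a library left out. For MAR1HI against BaP, the lower count of 1 was 0 with a pseudocount of 0.1, with no filter, with quantile normalization, with median-of-ratios scaling and with copy sets merged, 2 with only those 2 groups fitted, and 0 to 2 with a library left out. The higher count of 0 was 2 with only those groups fitted and 0 to 2 with a library left out. For MAR1INT against BaP, the higher count of 1 was 2 with quantile normalization, 0 with copy sets merged, and 1 to 2 with a library left out. The histone total ranged from -0.45 to 0.18 for MAR1HI over BaP and from -1.21 to -0.58 for MAR1INT over MAR1HI with a library left out. Signs turned for sums of MAR1HI over BaP: the H1 sum was -0.062 with median-of-ratios scaling and ranged from -0.11 to 0.42 with a library left out, the H2A sum from -0.33 to 0.20, the H2B sum from -0.50 to 0.073, the H3 sum from -0.47 to 0.26 and the H4 sum from -0.54 to 0.15. H3c15 in MAR1INT against BaP was -4.08 without BaP replicate 2 and 4.26 without BaP replicate 1. The cause was not tested. With the replicate block, 38 members were called lower in MAR1INT against MAR1HI and 43 against BaP, and no other count of calls differed. Shares of all genes called are given only for the main fit and the other scalings. Counts from the remaining settings, such as the pseudocount, the filter, the groups fitted and the block, cannot be set against such a share. The merging of copy sets was chosen after seeing the data. Where a library was left out, the lone library of its group was assumed to vary like those of the other groups. Read counts were not used here, so counting error behind the low values is unknown, and 2 libraries a group limit every p-value.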

Other observations

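The gene clusters on the 2 chromosomes had similar ratios of MAR1INT over BaP, and less similar ones in the other contrasts. Members on chromosome 13 summed to 131405 and 158100 TPM in BaP, 160256 and 103537 in MAR1HI against 72532 and 69624 in MAR1INT, a log2 ratio of -1.03 for MAR1INT over BaP. Those on chromosome 3 summed to 20518 and 18155 TPM in BaP, 25273 and 16562 in MAR1HI against 9625 and 8494 in MAR1INT, a log2 ratio of -1.09. In both clusters the MAR1INT libraries were below all the others. The log2 ratio of MAR1INT over MAR1HI was -0.89 on chromosome 13 and -1.21 on chromosome 3. For MAR1HI over BaP it was -0.13 and 0.11. The chromosome 3 sum includes H3c14 and H3c15, which together had 30.1 TPM in BaP replicate 2 against 4926 in BaP replicate 1. The spread between replicates was narrow in MAR1INT, where the median SD of the members was 0.10 on the log2(TPM + 1) scale, and wider in BaP (0.22) and MAR1HI (0.42), beside 0.25, 0.19 and 0.31 over all genes tested.

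The remaining marker lists gave these summed TPM values, and their part in the histone results was not tested. Erythroid markers had 1605 and 2383 in BaP, 1229 and 636 in MAR1HI against 2801 and 1275 in MAR1INT. Monocyte and macrophage markers had 998 and 1395 in BaP and 494 to 592 in the other 4 libraries. Dendritic cell markers had 1032 and 398 in BaP, 102 and 92.7 in MAR1HI against 31.8 and 41.7 in MAR1INT. T and NK cell markers had 375 and 387 in BaP, 197 and 199 in MAR1HI against 34.1 and 51.5 in MAR1INT, with Cd3g at 0 in every library. Mast cell markers, which include the shared gene Cpa3, had 3329 and 3877 in BaP, 2764 and 3023 in MAR1HI against 1448 and 981 in MAR1INT, with Tpsab1 at 0 in every library. Megakaryocyte markers had 269 to 557 over all libraries with Gp6 at 0 throughout, and B and plasma cell markers had 14.8 to 47.3.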
